A study of Mus musculus with 6 samples.

Results

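*Gli2*, *Ctnnb1*, *Ell2* and *Zbtb40* are 4 genes for transcription regulators that each hold a ChIRP-seq peak of *LncRNA-HIT* in the embryonic mouse limb. They were chosen by name, as genes that the study itself listed near a limb peak, from 22380 protein-coding genes of the mm9 annotation (GENCODE M1). Every row of the limb peak list (2880 peaks) and of the glial peak list (2919 peaks) that lay within 100 kb of one of these genes was collected, which gave 7 limb peaks and 1 glial peak. The study listed such genes from strong limb peaks, after leaving out limb peaks that had a glial counterpart. Since this is what selected the genes, the positions and scores of these peaks are given as a description and were not tested.

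ChIRP-seq recovers the DNA that lies close to an RNA, by hybridizing biotin-tagged DNA probes to that RNA in crosslinked, sheared chromatin and pulling down the complexes. Chromatin was taken from limb bud mesenchyme of Swiss Webster mouse embryos labelled E 11.0, pooled from many embryos, and from a murine glial cell line that lacks *LncRNA-HIT* and served as the control. The labels give the glial samples the same strain and stage, brain as their source, and a protocol that names a later embryonic stage, so the stage of the glial cells is uncertain. Each source was hybridized with an odd set and an even set of probes and has 1 input library, 6 libraries in all, with no genetic or drug treatment in either. The odd and even libraries were merged by the authors before peaks were called, so that each tissue has 1 peak list and no replicate error can be attached to any value below. The files hold no expression values, and the tissue labels could not be checked against marker genes.

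The 4 genes act at different levels of transcriptional control. *Gli2* encodes a zinc finger factor that carries much of the activating response to Hedgehog ligands, the signals that pattern the limb along its anterior-posterior axis and later control the growth plate. *Ctnnb1* encodes β-catenin, which links cadherins to the cytoskeleton and, when Wnt ligands stop its destruction, enters the nucleus and activates targets with TCF/LEF factors; in limb mesenchyme it is known for opposing the cartilage fate. *Ell2* encodes an elongation factor that increases the rate of RNA polymerase II and belongs to the super elongation complex. *Zbtb40* encodes a member of the BTB and zinc finger family, many of which bind DNA and regulate transcription.

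The peaks inside the genes differed in the part of the gene they covered, and the sequences of 3 of them are shown for that reason, on the plus strand of mm9. The central 300 bases of the *Gli2* peak, chr1:120893539-120893838, are intronic, and the capitals mark the stretch that most resembles a probe:
Gli2 peak, centre: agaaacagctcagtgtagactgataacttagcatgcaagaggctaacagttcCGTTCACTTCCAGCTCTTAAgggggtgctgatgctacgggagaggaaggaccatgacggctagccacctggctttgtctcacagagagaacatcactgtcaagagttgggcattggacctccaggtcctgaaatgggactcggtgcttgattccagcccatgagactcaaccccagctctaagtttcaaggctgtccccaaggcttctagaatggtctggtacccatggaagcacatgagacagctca
The 300 bases of the *Ctnnb1* peak at chr9:120859989-120860288 hold a whole coding exon, in capitals, with the intron ends on both sides:
Ctnnb1 peak, exon: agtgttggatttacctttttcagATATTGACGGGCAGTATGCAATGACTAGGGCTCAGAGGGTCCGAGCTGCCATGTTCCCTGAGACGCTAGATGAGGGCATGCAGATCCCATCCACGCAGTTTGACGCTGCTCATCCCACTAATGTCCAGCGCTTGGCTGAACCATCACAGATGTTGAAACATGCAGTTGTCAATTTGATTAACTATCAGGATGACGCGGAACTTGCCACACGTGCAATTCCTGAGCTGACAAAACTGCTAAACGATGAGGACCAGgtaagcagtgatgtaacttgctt
The last 300 bases of the strongest *Zbtb40* peak, chr4:136542879-136543178, run from an intron into the part of a coding exon that the peak covers, in capitals (the gene lies on the minus strand):
Zbtb40 peak, right end: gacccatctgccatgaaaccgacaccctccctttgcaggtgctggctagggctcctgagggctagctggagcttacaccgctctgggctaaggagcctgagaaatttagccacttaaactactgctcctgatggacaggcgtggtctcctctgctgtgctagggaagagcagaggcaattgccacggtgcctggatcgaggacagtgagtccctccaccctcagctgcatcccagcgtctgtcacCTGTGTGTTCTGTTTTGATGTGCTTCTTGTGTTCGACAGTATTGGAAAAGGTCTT

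The *Gli2* gene (ENSMUSG00000048402.8, chr1:120730709-120950196, minus strand) is 219 kb long, longer than 96.2% of protein-coding genes, and it held 1 limb peak and 1 glial peak at different places. The limb peak covered chr1:120893474-120893903, 430 bp, with a score of 74.9, where the score is the −log10 of the p-value that the peak caller assigned. It lay wholly in intron 2 of 13 introns between the 14 exons of the longest coding transcript, 56.5 kb from the 5′ end of the gene and 4.71 kb from the nearer exon. It ranked 333rd of the 2880 limb peaks, and its centre was 14.5 kb from the nearest annotated transcript start of *Gli2*. The glial peak covered chr1:120757397-120757778, 382 bp, in intron 5, near the 3′ end of the gene and 136 kb from the limb peak. Its score was 9.45 and it ranked 2714th of 2919, among the weakest of its list. A dinucleotide repeat of TG ran for 47 bp within it, and only 2.02% of glial peaks held a tandem repeat as long. No other peak of either list lay within 250 kb of *Gli2*. The closest ones were a glial peak at 414 kb and a limb peak at 672 kb.

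*Ctnnb1* (ENSMUSG00000006932.9, chr9:120838334-120869625, plus strand, 31.3 kb) held a single limb peak, at chr9:120859974-120860403, with a score of 59.9 and rank 645. Of its 430 bp, 273 were coding. The peak contained all 254 bp of exon 4 (chr9:120860012-120860265), the 119 bp of the following intron, 19 bp of exon 5 and 38 bp of the intron before. Exon 4 encodes residues 81 to 165 of the 781 residues of β-catenin, the stretch that follows the amino-terminal phosphorylation sites and runs into the armadillo repeats. The peak lay 21.9 kb from the 5′ end of the gene. A short annotated transcript of the nonsense-mediated decay class starts inside it, 19 bp from the peak's centre. No glial peak lay closer than 404 kb to the gene, and the next limb peak was 303 kb away. *Ulk4*, a neighbour whose annotated body overlaps the end of *Ctnnb1*, lay 8.98 kb from the peak.

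*Ell2* (ENSMUSG00000001542.6, chr13:75844932-75909804, plus strand, 64.9 kb) held the strongest peak near any of the 4 genes. The limb peak at chr13:75909071-75909778 had a score of 147 and ranked 28th of 2880. It was also the widest of the 7 limb peaks, at 708 bp, and 3.99% of the limb peaks were wider. All 708 bp lay in the 3′ untranslated region of the last exon, exon 12. That region is 1563 bp long (chr13:75908242-75909804), of an exon of 1677 bp. The peak began 829 bp after the start of that region and ended 26 bp before the annotated end of the gene, 64.5 kb from the gene's 5′ end. The nearest limb peak outside the gene was 1.21 Mb away and the nearest glial peak 157 kb away, with a score of 23.6.

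*Zbtb40* (ENSMUSG00000060862.9, chr4:136535647-136604716, minus strand, 69.1 kb) was the only one of the 4 genes with more than 1 limb peak within 100 kb. The strongest, at chr4:136542621-136543178, had a score of 91.2 and ranked 133rd. Of its 558 bp, 503 lay in intron 16 and 55 in exon 16 of 19, where they encode residues 1072 to 1090 of the 1258 residues of the protein. It lay 61.8 kb from the 5′ end of the gene, within the last exons. The other 3 peaks lay outside any annotated gene, on the upstream side. The one at chr4:136656471-136656903 had a score of 77.4 and rank 287, and lay 51.8 kb from the gene. A weaker one at chr4:136654746-136655153 was 1.32 kb from it, with a score of 39.2 and rank 1304. The third, at chr4:136617946-136618353, lay 13.2 kb from the gene, with a score of 27.1 and rank 1715. *Zbtb40* was the nearest protein-coding gene to all 3. The second nearest was *Epha8*, on the downstream side of *Zbtb40*, from 105 kb to 144 kb from these peaks. The next gene on the upstream side was *Wnt4*, a Wnt ligand gene, which lay farther off, at least 176.5 kb from each of them. No glial peak lay within 232 kb of *Zbtb40*.

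**Figure D1:**
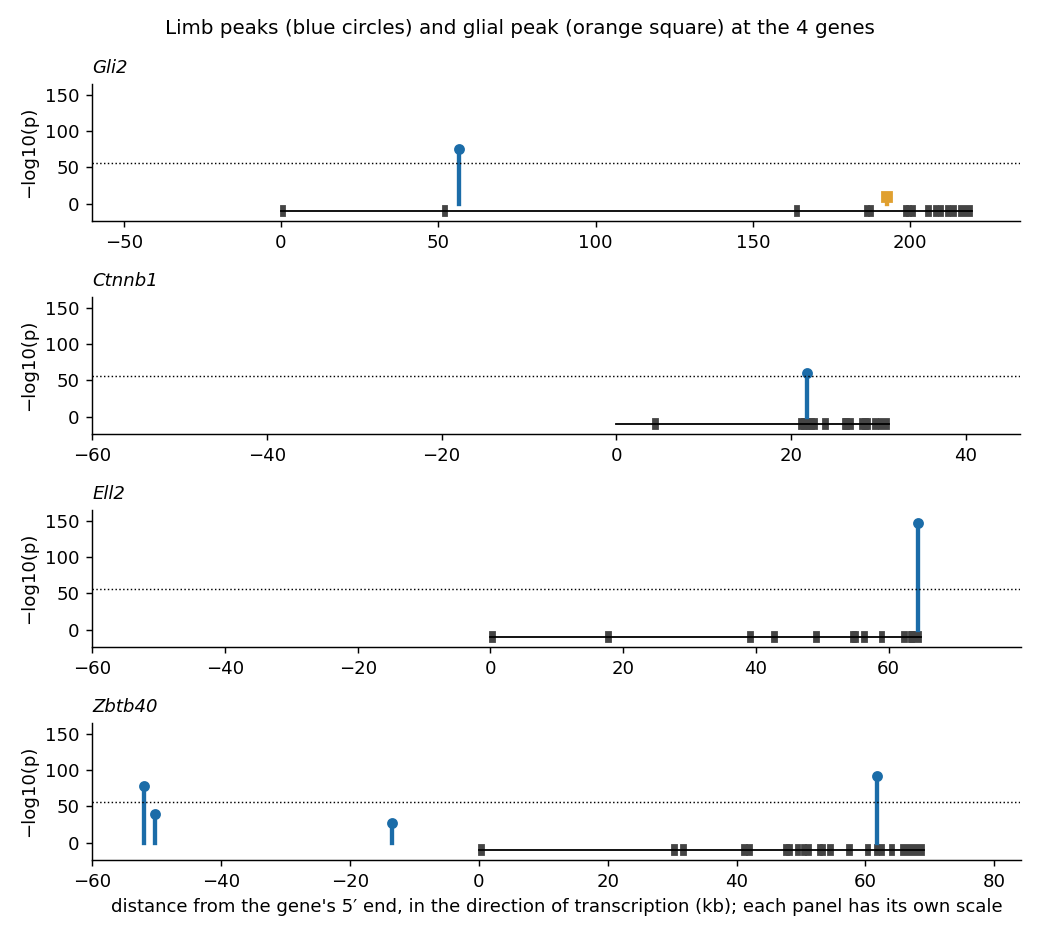
Peaks near the 4 genes, with the distance from the 5′ end of each gene in kb along the x axis and the peak score, −log10(p), as the height of each stem. Dark boxes are exons of the longest coding transcript, blue circles are limb peaks, the orange square is the glial peak, and the dotted line is the study's threshold. The *Ell2* peak (score 147) sits at the 3′ end of its gene, the *Gli2* limb and glial peaks are 136 kb apart, and 3 of the 4 *Zbtb40* peaks lie before the gene's start.

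The scores of the 7 limb peaks ran from 27.1 to 147, and 5 of them passed the threshold of the study. The study set its limit at a p-value of 5.9e-57, and 774 limb peaks met this. The last of them had a score of 56.26 and the next peak, at rank 775, had 56.225. In order of score the 4 genes ran *Ell2* (147), *Zbtb40* (91.2), *Gli2* (74.9) and *Ctnnb1* (59.9), and the upstream *Zbtb40* peak with 77.4 fell between the second and the third of these. *Ell2* stood among the top 3.62% of the threshold peaks and *Zbtb40* among the top 17.2%, whereas *Gli2* was in the middle, at 43%, and *Ctnnb1* was near the lower end, at 83.3%. The scores of *Gli2* and of the upstream *Zbtb40* peak lay close together, and with no replicate it cannot be said which of these neighbours was higher. The 2 other upstream *Zbtb40* peaks and the glial peak in *Gli2* were under the threshold.

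**Figure D2:**
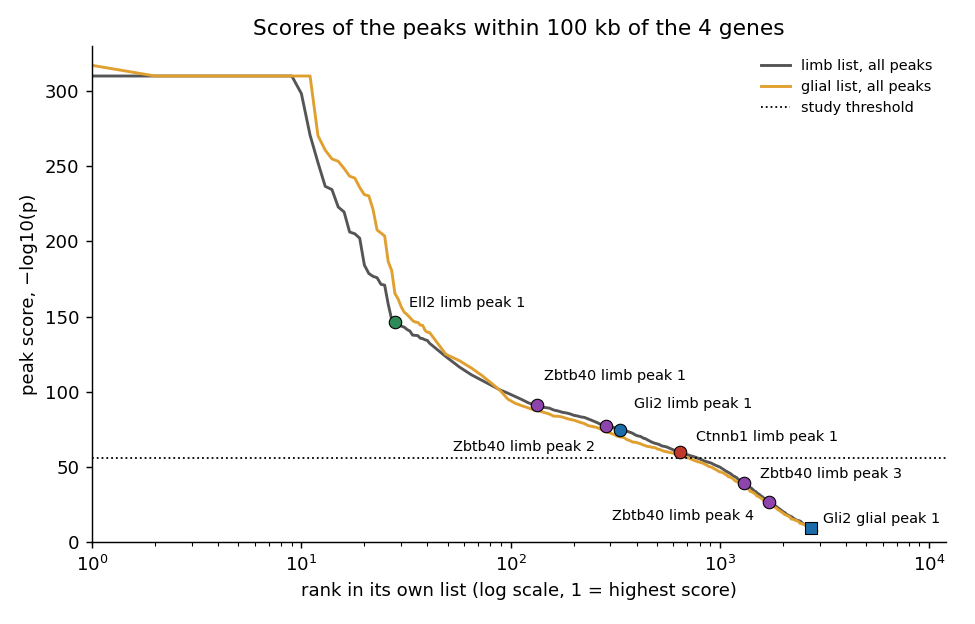
Score of each peak, −log10(p), against its rank in its own list on a log scale. The grey and orange lines are all limb and all glial peaks, circles are limb peaks and the square the glial peak within 100 kb of the 4 genes, and the dotted line is the study's threshold. *Ell2* stands near the bend of the curve at rank 28, and *Ctnnb1* just above the threshold at rank 645.

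These values stand against a background in which limb peaks near genes were not rare. Of all protein-coding genes, 24% had any limb peak within 100 kb and 21% had any glial peak within 100 kb. A limb peak at the threshold lay within 25 kb of 2.9% of protein-coding genes and overlapped the body of 1.51%. Having 4 limb peaks or more within 100 kb, as *Zbtb40* had, was found for 0.478% of protein-coding genes. The 4 genes were selected on such peaks, so their own counts cannot be read against these shares. By gene part, 36.2% of the 774 threshold peaks lay in an intron of a protein-coding gene, as in *Gli2*. Another 9.3% touched a coding exon, as in *Ctnnb1* and *Zbtb40*, and 1.68% touched an untranslated exon but no coding exon, as in *Ell2*.

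None of the 7 limb peaks overlapped a glial peak, and none had a glial peak within 10 kb. The closest approach was the 136 kb between the limb and the glial peak of *Gli2*, and the other distances ran from 157 kb at *Ell2* to 413 kb at *Ctnnb1*. An overlap of at least 1 bp with a glial peak was found for 7.24% of the limb threshold peaks. The study had left out peaks with a glial counterpart before it listed genes, so the lack of overlap at the genes' own peaks was fixed by the selection and nothing is read from it. The glial list was called from a separate merged signal, and a locus that is missing from it was not thereby shown to lack signal.

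Each peak was next compared with the 25 probes, 13 odd and 12 even, all of 20 bases and all matching a stretch of 1 strand of chromosome 6 (chr6:52206273-52207367 of mm9). For each probe the best ungapped alignment on either strand was taken. The pairs below show the most probe-like stretch in 1 peak of each gene, with the bases that match in capitals and the peak read in the direction of the probe. The *Gli2* stretch is chr1:120893591-120893610 on the minus strand, the *Ctnnb1* stretch chr9:120860222-120860241 on the plus strand, the *Ell2* stretch chr13:75909185-75909204 on the minus strand, and the *Zbtb40* stretch, in the weaker of the neighbouring upstream peaks, chr4:136654994-136655013 on the minus strand:
Probe 16 (even): gTgAGgGCTGGgAGTGAAtG
Gli2 peak: tTaAGaGCTGGaAGTGAAcG
Probe 9 (odd): GacCAATTCaTGAGCTGtCA
Ctnnb1 peak: GtgCAATTCcTGAGCTGaCA
Probe 12 (even): atCttCACTCGTCAGCaaTT
Ell2 peak: tgCaaCACTCGTCAGCtcTT
Probe 22 (even): CAAATgGTGtGCaAGTAtCA
Zbtb40 upstream peak: CAAATcGTGaGCtAGTAcCA
*Ctnnb1* matched probe 9 at 16 of 20 bases, in a stretch 43 bp from the centre of the peak and within exon 4. The mismatches, counted from the 5′ end of the probe, were A2T, C3G, A10C and T18A. *Gli2* matched probe 16 at 15 of 20 bases, 88 bp from the centre. *Ell2* matched no probe at more than 14 bases, and 11 of those in probe 12 were adjacent, in a stretch 230 bp from the centre. The strongest *Zbtb40* peak and the stronger upstream one also reached 14 at most. The stronger upstream one also held 11 adjacent bases, of probe 1. A run of 11 or more was found in 16.9% of the limb peaks outside the *LncRNA-HIT* locus. The upstream *Zbtb40* peak with a score of 39.2 matched probe 22 at 16 bases and probe 16 at 15, at 54 bp and 125 bp from its centre. Over the limb threshold peaks with a match of at least 15 bases, the median distance from the centre was 93.5 bp. Over the glial threshold peaks with such a match the median was 119.5 bp. It would be 103.25 bp in either list for matches spread evenly over the peaks.

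Matches of this length were frequent in the limb list. At least 15 of 20 bases of a probe were found in 21.3% of the 773 threshold peaks that lay away from the *LncRNA-HIT* locus, and in 17.9% of the 2879 such peaks of the whole limb list. Among the peaks near the 4 genes these were 3 of 7, namely those of *Gli2*, *Ctnnb1* and 1 *Zbtb40* peak. Probe 16 gave the most matches of any probe, in 23 of the threshold peaks, and probe 9 gave 18, whereas probe 22 gave 2. A match of at least 16 bases, as in *Ctnnb1*, was found in 3.86% of all limb peaks. None of the 7 peaks held 12 adjacent probe bases, which 11% of the threshold peaks did. None matched a probe of each set at 15 bases or more, and 1.55% of the threshold peaks did so. The matches in *Gli2* and in the *Zbtb40* peak were to even probes alone and that in *Ctnnb1* to an odd probe alone. Whether base pairing of probes with these stretches contributed to the peaks was not tested. The glial peak in *Gli2* reached 14 bases, with probes of both sets.

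**Figure D3:**
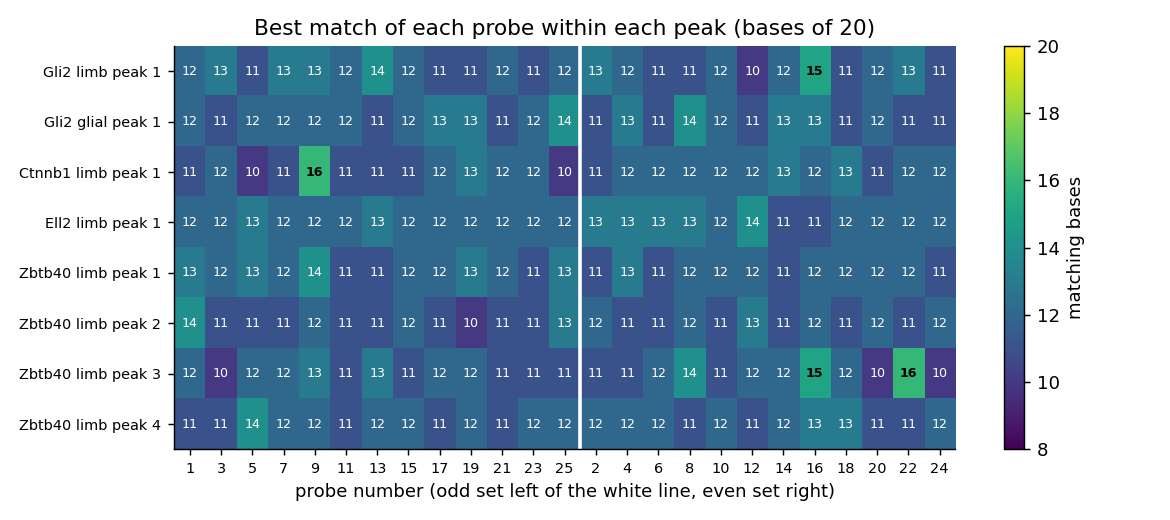
Number of matching bases, of 20, in the best alignment of each probe (x axis, odd set on the left and even set on the right) within each of the 8 peaks near the 4 genes (y axis, numbered by score for each gene). Bold numbers are matches of 15 or more. Most alignments reach 10 to 13 bases, and 4 cells reach 15 or 16, those of *Gli2* with probe 16, *Ctnnb1* with probe 9, and *Zbtb40* peak 3 with probes 16 and 22.

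The peaks of the 4 genes differed in base composition. The *Ell2* peak had a GC content of 34.2%, and 6.15% of the limb peaks outside the *LncRNA-HIT* locus had less. *Ctnnb1* (47.0%) and *Gli2* (47.7%) were a little above the median of 44.1%. The strongest *Zbtb40* peak had 54.3% GC, and the stronger upstream one 58.2%, more than 98.3% of limb peaks. Repeated sequence was counted as the share of a peak's 24-base words that were also found elsewhere in the genome. Its median was 0.987% over the limb peaks outside the *LncRNA-HIT* locus. It was 0% in *Gli2*, *Ctnnb1* and the 2 neighbouring upstream *Zbtb40* peaks. It was 0.187% in the strongest *Zbtb40* peak and 4.82% in *Ell2*, which lay above 63.5% of those limb peaks. The highest shares were those of the *Zbtb40* peak 13.2 kb upstream, with 11.4%, and the glial peak in *Gli2*, with 15.04%. Both held a long run of the same dinucleotide, GT, for 46 bp in the first and 47 bp in the second. The 46 bp of that run were the longest sequence that any 2 of the 8 peaks shared, whereas the other pairs shared 8 to 14 bp.

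**Figure D4:**
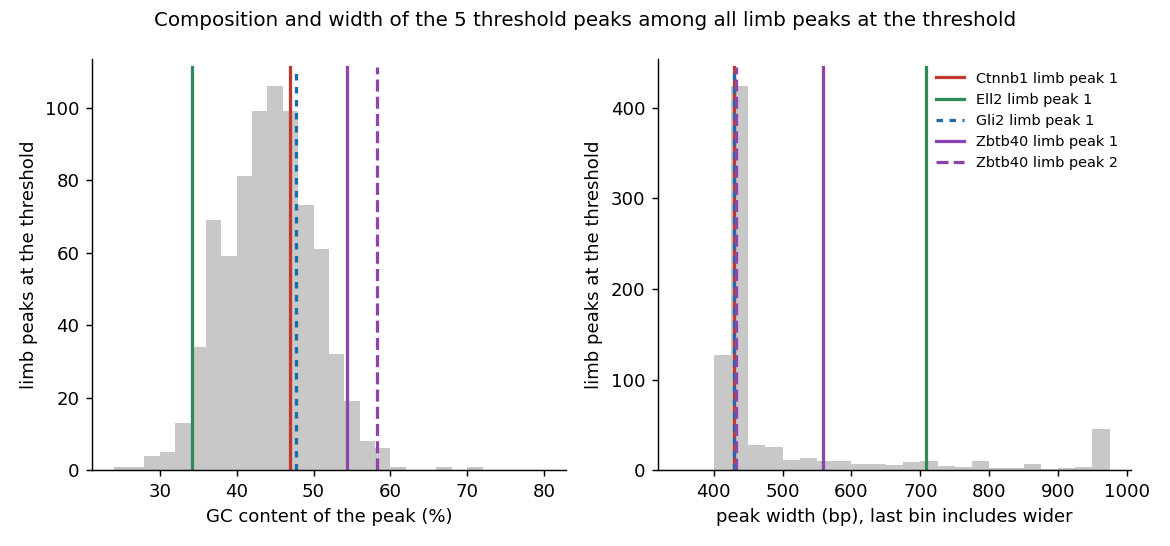
GC content in percent (left) and width in bp (right) of the 773 limb peaks at the threshold outside the *LncRNA-HIT* locus, as grey histograms of the number of peaks. Coloured lines mark the 5 threshold peaks near the 4 genes. *Ell2* lies in the lower tail of GC content at 34.2% and is the widest of the 5 at 708 bp, and *Gli2*, *Ctnnb1* and *Zbtb40* peak 2 have nearly the same width.

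The peaks were also searched for DNA words that the factors of these pathways are known to bind. The GLI word GACCACCCA and the TCF/LEF words CTTTGAT and CTTTGAA were searched on both strands in the central 400 bp of every peak; the last bases of the pair of TCF/LEF words differ, so that no site counts for both. None of the 3 words was found in the 7 limb peaks. In the limb threshold peaks outside the *LncRNA-HIT* locus, GACCACCCA was found in 0.129%, CTTTGAT in 8.28% and CTTTGAA in 7.89%. Most peaks of the list thus held none of them, as these 7 did, so nothing is read from their absence here. The glial peak in *Gli2* held CTTTGAA, at chr1:120757418-120757424, as did 10.2% of glial peaks.

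Of all protein-coding genes, 2.9% had a limb peak at the threshold within 25 kb, and few of the other genes of the pathways of these 4 genes had one. Of 20 Hedgehog pathway genes, *Gli2* was the one with such a peak, and none lay within 25 kb of the others. This count depended on the window and the threshold. With *Gli2* counted, 4 of the 20 had a threshold peak within 100 kb. A limb peak of any score within 25 kb was found for 4 of the 20, again with *Gli2* counted. The shares of all protein-coding genes at these settings were 7.52% and 10.0%. As *Gli2* was selected for its peak, these counts cannot be read against those shares. Counts of every list at both settings are given in the last section. Of the Wnt pathway, none of 19 ligand genes and none of 14 receptor genes had a threshold peak within 25 kb. At a share of 2.9% over all genes, lists of this size can hold none, and nothing is read from these counts. Of 21 genes for intracellular components, *Ctnnb1* was the one with a threshold peak within 25 kb. With *Ctnnb1* counted, 4 of these 21 had a limb peak of any score within 25 kb. *Ctnnb1* was selected for its peak too, so this count is likewise not read against the 10.0% of all protein-coding genes. Of 13 secreted or membrane inhibitors of Wnt signals, *Sfrp2*, which encodes a secreted protein that binds Wnt ligands, had an intronic peak with a score of 59.6 and rank 656. Among 23 genes of transcription elongation there were 2, *Ell2* and its paralog *Ell*, whose intronic peak at chr8:73105874-73106728 had a score of 90.4 and rank 139. Of 36 BTB and zinc finger genes with a Zbtb symbol, *Zbtb40* and *Zbtb7c* had one, the latter in an intron with a score of 63.4 and rank 556. With *Zbtb40* counted, which was selected for its peak, 6 of the 36 had a threshold peak within 100 kb. Such a peak was found for 0 of the 19 Wnt ligand genes, 1 of the 14 receptor genes and 1 of the 21 intracellular genes. Among the Wnt inhibitors it was 1 of 13, and among the elongation genes 2 of 23. The share of all protein-coding genes was 7.52%, and lists of this size, some holding a selected gene, are not read against it.

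Taking all lists together, 7 of 146 genes had a threshold limb peak within 25 kb, and 4 of the 7 are the genes that were selected for it. Without these, 3 of 142 genes remained, which is 2.11% and near the 2.9% of all protein-coding genes. Within 100 kb, 15 of the 146 genes had a threshold limb peak, the 4 selected genes among them. This total is therefore not read against the 7.52% of all protein-coding genes at that distance. Each of the 7 peaks lay inside its gene, 4 of them in genes selected for such peaks. Over all protein-coding genes, 648 had a threshold limb peak within 25 kb and 337 had one over the gene body. With 3 genes left that were not selected, nothing is read from their positions. None of the peaks in *Sfrp2*, *Ell* and *Zbtb7c* overlapped a glial peak, which 7.24% of the limb threshold peaks did. In the glial list, 2 of the 146 genes, or 1.37%, had a peak at the same threshold within 25 kb, against 2.27% of all protein-coding genes. They are named here after their values were seen. *Smo*, which encodes the transducer of Hedgehog signals, had an intronic glial peak with a score of 249, of whose 24-base words 79.0% occurred elsewhere in the genome, and it overlapped a limb peak with a score of 23.4. *Aff3*, a gene of the super elongation complex family, had an intronic glial peak with a score of 119 and no limb peak over it.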

How the data were processed

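The authors mapped the ChIRP-seq reads to mm9 with Bowtie 0.12.9, merged the odd and even tracks of each tissue by the minimum, and used MACS (version not given in the sources used here) with the input library as control. The deposited score of each peak is 10 times its −log10 p-value and was divided by 10. Peak starts were converted to 1-based positions. The deposited probe file gave the 25 probe sequences. Read counts behind a peak, and thus depth and counting error, are unknown, and deeper libraries could pass more peaks at a given p-value. Genes, exons and sequence came from GENCODE M1 and NCBIM37, the same assembly. Distances ran from peak edge to gene body. Scripts in Python 3.11.15 with pysam 0.24.0 and numpy 2.4.6 were tested on simulated data with planted items. No comparison was tested, since each tissue has 1 list. The 4 genes and the gene lists were chosen with earlier results of these data known. By the rule, named genes were the 4 genes, the protein-coding genes that their peaks overlap or, failing that, lie nearest to, and each list gene with a threshold limb peak within 25 kb. *Wnt4*, *Epha8*, *Ulk4*, *Smo* and *Aff3* fall outside it and were chosen after their values were seen. Alternatives were other distances, other probe matches, longer words and stricter peaks. Of 21 listed Hedgehog genes and 24 elongation genes, 20 and 23 were found in the annotation by symbol or synonym. Signal tracks and expression after siRNA treatment were not analysed here.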

Additional observations from a re-analysis of the deposited data

How the results depend on the processing

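Under the alternatives tried, the number of limb peaks near the 4 genes stayed at 5 to 7 (25 kb, 50 kb, 250 kb, threshold peaks alone, or distance to the nearest annotated start), and *Gli2*, *Ctnnb1* and *Ell2* each had 1 in all of them. *Zbtb40* had 2 rather than 4 within 25 kb, within 50 kb and among threshold peaks. The count of 1 glial peak within 100 kb became 4 within 250 kb and 0 with the threshold or with distance to the nearest annotated start. No limb peak had a glial peak within 1 kb or 10 kb. The 3 limb peaks with a probe match became 7 at 14 of 20 bases, 2 at 16 bases, 4 with peaks widened by 200 bp, and 0 with a run of 12 bases. The corresponding shares of the threshold peaks were 65.5%, 5.17%, 31.2% and 11.0%. These sets are unlike, since the counts take in 2 *Zbtb40* peaks under the threshold, 1 of which held a match of 16 bases. With 36-base words in place of 24, 7 rather than 6 limb peaks had under 10% repeated words. The 7 list genes with a threshold limb peak within 25 kb became 15 within 100 kb and 20 with all peaks of the list, with Hedgehog genes going from 1 to 4 and 4, BTB genes from 2 to 6 and 4, Wnt receptors from 0 to 1 and 1, intracellular Wnt components from 1 to 1 and 4, Wnt inhibitors from 1 to 1 and 2, elongation genes from 2 to 2 and 5, and Wnt ligands remaining at 0, while the share of all protein-coding genes rose to 7.52% and 10.0%. It was 7 with gene body overlap (1.51% of all genes) and 7 with limb peaks free of glial overlap (2.73%). All of these totals take in the 4 selected genes. No paired analysis was possible because each tissue has 1 peak list made from merged probe sets. The score depends on depth, which is unknown, so ranks hold within a list only.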
